A study of Mus musculus with 5 samples.

Results

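Counts of 45 transcription factors of mesoderm, endoderm and facial mesenchyme were followed in mouse forebrain at E12.5 with and without a deletion of Eed. The factors were chosen by gene symbol from a fixed list, and all 45 were found among the genes with a symbol in the deposited count table. Polyadenylated RNA came from the forebrains of untreated C57BL/6 littermates, 3 with the genotype EedcKO and 2 with the genotype wild type (WT). The labels name no Cre driver and no deleted exons for the EedcKO genotype and do not say whether a sample was a single embryo. By Xist and Y-linked counts, EedcKO 1 came from another embryo than EedcKO 2 and 3. Between the other libraries of a group, the spread behind the p-values may be technical.

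Eed is a core subunit of Polycomb repressive complex 2, the enzyme that methylates lysine 27 of histone H3 and keeps developmental regulators silent outside their own lineage. The 45 factors belong to that class of regulators. GATA, FOXA, HNF4A and CDX factors specify endoderm and gut, T-box, HAND and NKX factors pattern the streak, heart and limbs, and ALX, BARX, PITX and SHOX factors act in the face and limb mesenchyme. Neural tissue of the early forebrain normally expresses few of them.

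The counts summed to 4915493, 4959394 and 5008928 in EedcKO 1, 2 and 3, against 5026381 in WT 1 and 4820630 in the library labelled WT 2. Eed itself had 251, 233 and 247 counts in EedcKO 1, 2 and 3, against 404 in WT 1 and 238 in the library labelled WT 2 (log2 fold change EedcKO over WT -0.40, SE 0.22, edgeR adjusted p = 0.412). The library labelled WT 2 thus lay at the EedcKO level, and the calls on the factors are given with it and without it. Counts over the whole gene may take in exons that the deletion leaves, so this is only a partial check of the labels. Forebrain markers had counts in all 5 libraries, with no one direction. Lhx2, a regulator of cortex and eye, had 1341, 1370 and 1648 counts in EedcKO, against 922 in WT 1 and 1305 in the library labelled WT 2. Dlx1, of the ventral telencephalon, had 1653, 1210 and 1216, against 2198 and 1905, and Six3, of the anterior neural plate, had 279, 250 and 205, against 581 and 376. None of these passed the test. Nkx2-1, which marks the ventral forebrain, was uneven within EedcKO, at 331, 7 and 6 counts, against 863 and 724. EedcKO 1 and both WT libraries were female by Xist counts, and EedcKO 2 and 3 were male by Y-linked counts, so genotype and sex are partly confounded. Where cells of a type are fewer or hold less of an RNA, bulk counts cannot tell these apart.

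Most of the factors were at or near silence in every library. Of the 45, 4 had no count anywhere (Hnf4a, Cdx1, Cdx2 and Mixl1), and 6 more had under 5 counts over the 5 libraries. A further 19, the sparse factors, had at least 5 counts but did not pass the filter on low counts. Among these, Pax1 and Osr2 had most of their counts in the library labelled WT 2. The remaining 16 passed that filter. In all, 35, 36 and 30 of the 45 had at least 1 count in EedcKO 1, 2 and 3, against 27 in WT 1 and 38 in the library labelled WT 2. Summed over the 45, the counts were 882, 887 and 906 in EedcKO 1, 2 and 3, against 521 in WT 1 and 1073 in the library labelled WT 2. The EedcKO libraries lay close together, and both WT libraries lay outside them on opposite sides.

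**Figure D1:**
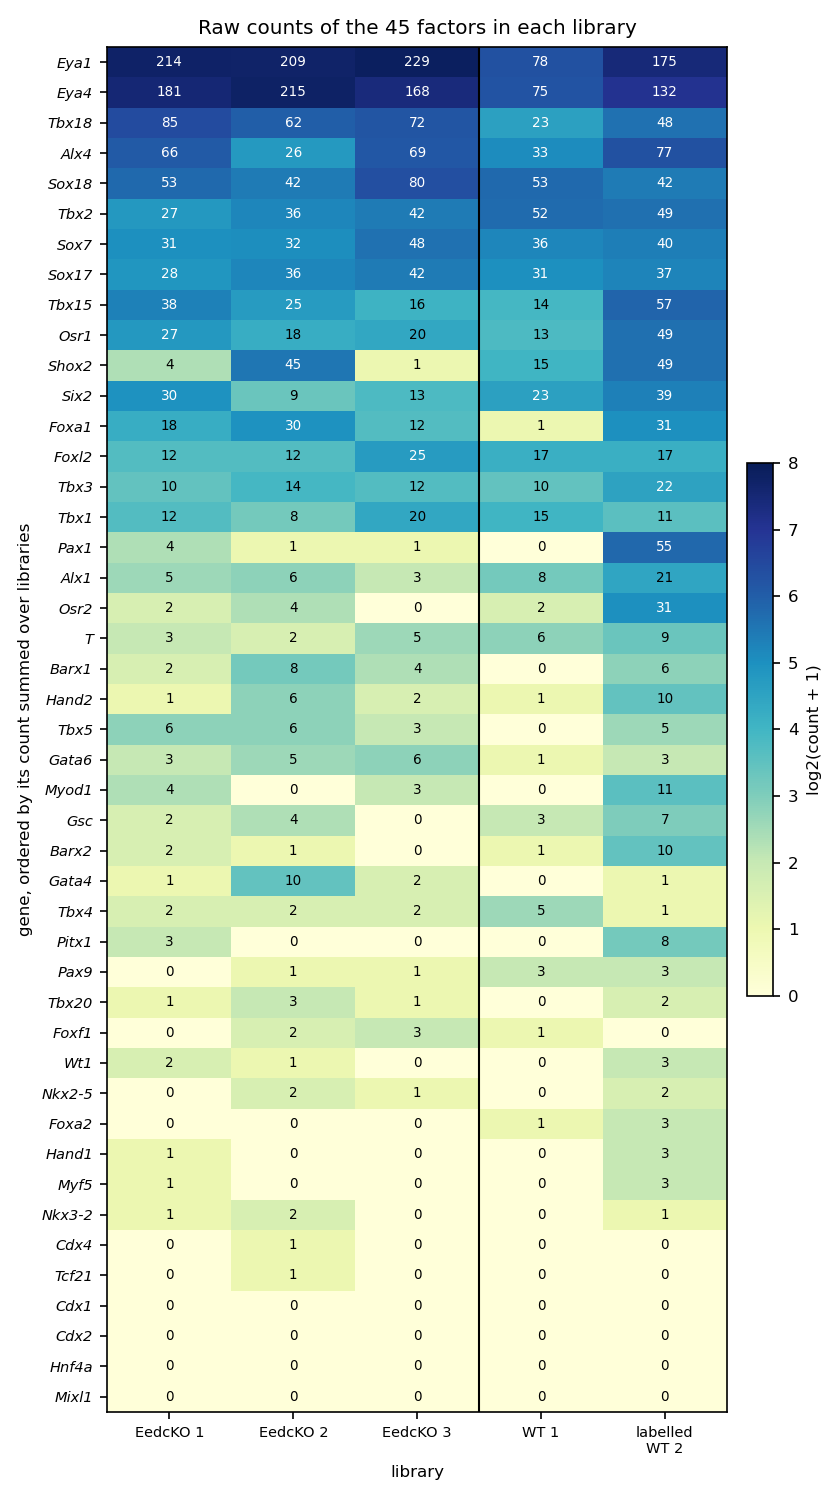
Raw counts of each of the 45 factors (rows, ordered by count summed over libraries) in the 3 EedcKO and 2 WT libraries (columns), with shading on a log2(count + 1) scale. Eya1 and Eya4 have the highest counts, WT 1 has the most factors at 0, and Pax1 stands out with 55 counts in the library labelled WT 2.

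None of the 16 tested factors passed edgeR's quasi-likelihood test of EedcKO against WT at a false discovery rate of 0.05, where 3.20% of the 13989 genes tested did (1.04% as higher and 2.17% as lower). Among the 16, 3 had an unadjusted p under 0.05 (17.2% of all genes did), and DESeq2 called 1 as higher, Eya4 (1.88% of all genes were called higher by DESeq2). The groups did not overlap for 3 factors that were higher in EedcKO (Eya1, Eya4 and Tbx18) and for 1 that was lower (Tbx2), where 16.4% and 17.4% of all tested genes did not overlap in these directions. The median log2 fold change of the 16 was -0.034, against 0.0074 over all genes tested. Their standard errors were wide, between 0.23 and 1.19 with a median of 0.44, against a median of 0.14 over all genes tested.

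Without the library labelled WT 2, 3 of 16 tested factors passed as higher (2.07% of all genes did) and none as lower by edgeR (4.12% of all genes did), with 4 at an unadjusted p under 0.05 (19.7% of all genes were). Without WT 1, 2 of 21 passed as lower (4.02% of all genes did) and none as higher (3.01% of all genes did), with 6 at an unadjusted p under 0.05 (23.6% of all genes were). No factor passed edgeR's test without EedcKO 1, 2 or 3, where 1.89%, 0.606% and 0 of all genes passed. In those fits 2, 4 and 2 of the 16 had an unadjusted edgeR p under 0.05, against 14.1%, 12.8% and 13.6% of all genes. The 3 higher calls were Eya1, Eya4 and Tbx18, and the 2 lower calls were Pax1 and Osr2. Pax1, Osr2, Alx1, Hand2 and Myod1 entered the fit without WT 1 only through the library labelled WT 2, where they were highest. Their direction in that fit was set by the filter on low counts, so their part in its counts out of 21 is no result. The fits without WT 1 or without the library labelled WT 2 each keep a single WT library, assumed to vary like EedcKO.

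The EYA genes encode transcriptional coactivators with phosphatase activity that work with sine oculis homeobox factors in ear, kidney, branchial arch and muscle. Eya1 (chromosome 1, 14168954 to 14310235, minus strand, mm10) had 214, 209 and 229 counts in EedcKO 1, 2 and 3, against 78 in WT 1 and 175 in the library labelled WT 2. All 3 EedcKO libraries lay above both WT libraries, and the library labelled WT 2 lay nearer to EedcKO than to WT 1. Eya1 averaged 45.0 ± 1.87 CPM (counts per 1000000, scaled by TMM) in EedcKO (SD, n = 3) and 26.0 ± 13.5 CPM in WT (SD, n = 2). The log2 fold change was 0.79 (SE 0.28, edgeR adjusted p = 0.207). Without the library labelled WT 2 the log2 fold change was 1.46, and without WT 1 it was 0.32. Each of these fits keeps a single WT library and takes its spread from EedcKO, although the WT libraries lay further apart than the EedcKO libraries.

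Eya4 (chromosome 10, 23102963 to 23350786, minus strand) also had both WT libraries below EedcKO, with WT 1 the lowest. It had 181, 215 and 168 counts in EedcKO 1, 2 and 3, against 75 in WT 1 and 132 in the library labelled WT 2. It averaged 38.9 ± 5.11 CPM in EedcKO (SD, n = 3) and 21.3 ± 7.80 CPM in WT (SD, n = 2). The log2 fold change was 0.86 (SE 0.23), with an edgeR adjusted p = 0.0965 and a DESeq2 adjusted p = 0.0399. Without the library labelled WT 2 it was 1.30, and without WT 1 it was 0.52, with a single WT library in each fit.

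The third tested factor whose EedcKO libraries all lay above WT was Tbx18, a T-box repressor expressed in epicardium, ureter mesenchyme and somites that also marks mural cells of vessels (chromosome 9, 87702800 to 87731260, minus strand). It had 85, 62 and 72 counts in EedcKO 1, 2 and 3, against 23 in WT 1 and 48 in the library labelled WT 2. As CPM these were 15.1 ± 2.48 in EedcKO (SD, n = 3) and 7.30 ± 3.47 in WT (SD, n = 2). The log2 fold change was 1.04 (SE 0.33, edgeR adjusted p = 0.146). Without the library labelled WT 2 it was 1.64, and without WT 1 it was 0.61, with a single WT library in each fit. Markers of the cell types that also express Tbx18 are set beside it. The 6 pericyte markers summed to 1438, 1469 and 1698 counts in EedcKO 1, 2 and 3, against 1517 in WT 1 and 1177 in the library labelled WT 2. The 8 markers of meninges and head mesenchyme, led by Col3a1, summed to 3971, 1827 and 2915 in EedcKO, against 1706 in WT 1 and 2762 in the library labelled WT 2. The pericyte sum was highest in EedcKO 3 and lowest in the library labelled WT 2. The mesenchyme sum, like the counts of Eya1, Eya4 and Tbx18, was lowest in WT 1, but its EedcKO libraries overlapped WT. Its members were not alike. Col1a1, Col1a2, Col3a1, Lum and Dcn were lowest in WT 1, while Postn and Aldh1a2 were not. Postn had 98, 61 and 92 counts in EedcKO, against 83 in WT 1 and 76 in the library labelled WT 2. Aldh1a2 had 17, 15 and 9, against 26 and 28. No marker of either list was at 0 in any library and none passed the test, and their part in the Eya1, Eya4 and Tbx18 counts was not tested.

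Promoter sequences are shown for 4 factors: Eya4 and Tbx18, the tested factors with the smallest p for which a sequence was held, and Foxa1 and Pax1, picked after their counts were seen because they set the WT libraries apart. Dense CpG is the sequence feature on which Polycomb complexes are known to act in mammals, so each CG is in capitals and the other bases are in lower case. Each window runs 5′ to 3′ from 250 bases before to 50 bases after a RefSeq transcription start (GRCm38.p6, the mm10 assembly), at chr10:23349894-23350193 on the minus strand for Eya4 (the more upstream of 2 overlapping windows), chr9:87731211-87731510 on the minus strand for Tbx18, chr12:57546062-57546361 on the minus strand for Foxa1 and chr2:147364744-147365043 on the plus strand for Pax1.
Eya4: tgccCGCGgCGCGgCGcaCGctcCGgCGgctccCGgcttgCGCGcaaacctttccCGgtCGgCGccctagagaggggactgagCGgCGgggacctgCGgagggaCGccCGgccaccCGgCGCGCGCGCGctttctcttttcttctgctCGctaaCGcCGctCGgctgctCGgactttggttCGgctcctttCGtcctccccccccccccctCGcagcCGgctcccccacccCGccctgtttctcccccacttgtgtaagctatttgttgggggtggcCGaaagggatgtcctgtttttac
Tbx18: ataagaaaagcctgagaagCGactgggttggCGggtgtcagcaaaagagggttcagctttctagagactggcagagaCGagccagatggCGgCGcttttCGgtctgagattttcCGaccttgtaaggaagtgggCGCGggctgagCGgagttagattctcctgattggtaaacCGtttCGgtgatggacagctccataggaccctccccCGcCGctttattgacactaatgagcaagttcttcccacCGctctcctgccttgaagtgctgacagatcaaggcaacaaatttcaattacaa
Foxa1: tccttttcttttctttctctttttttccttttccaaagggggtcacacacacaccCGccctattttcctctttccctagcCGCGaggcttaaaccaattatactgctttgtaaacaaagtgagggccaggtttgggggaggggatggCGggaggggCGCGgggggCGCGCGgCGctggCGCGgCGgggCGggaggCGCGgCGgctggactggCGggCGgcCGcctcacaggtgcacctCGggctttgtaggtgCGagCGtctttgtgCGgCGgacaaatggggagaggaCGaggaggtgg
Pax1: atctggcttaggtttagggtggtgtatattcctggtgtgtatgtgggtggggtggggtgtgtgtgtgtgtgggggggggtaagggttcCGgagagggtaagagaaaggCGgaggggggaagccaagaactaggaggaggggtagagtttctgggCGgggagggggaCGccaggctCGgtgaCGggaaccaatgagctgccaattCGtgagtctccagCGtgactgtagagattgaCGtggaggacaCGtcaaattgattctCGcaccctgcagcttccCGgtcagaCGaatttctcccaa
The dinucleotide CG, which reads the same on both strands, occurred 36 times in the Eya4 window, 15 times in that of Tbx18, 26 times in that of Foxa1 and 13 times in that of Pax1. Of all 32851 RefSeq windows of the same length, 6.23%, 34.6%, 16.9% and 37.9% held at least as many, and the median window held 7. The ratio of observed to expected CG was 1.02, 0.755, 0.929 and 0.639 in that order, against a median of 0.384. The other, less upstream Eya4 window held 28, where 14.2% of windows held at least as many, and its ratio was 0.918. In the GENCODE M21 annotation Eya4, Foxa1 and Pax1 reach upstream of these windows, to positions 23350786, 57546916 and 147361925. Any start there lies outside the sequences shown. Only 23 of the 45 factors (51.1%) had a window, so a comparison of CpG content over the whole group is void.

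Length-scaled levels (the authors' TPM, transcripts per 1000000) are given for the 16 tested factors. By the median over the 5 libraries, which pools the groups, the order was Sox18 (33.0 TPM), Eya1 (26.8), Eya4 (17.6) and Tbx18 (13.1), followed by Tbx2, Sox7 and Six2 between 11.4 and 10.9 TPM. The ranges over the 5 libraries overlapped for each pair of neighbours in the order of the 16. By the mean of the 2 WT libraries, Osr1 (14.8 TPM), Six2 (14.5), Tbx2 (13.9) and Sox7 (11.5) lay above Eya4 (10.9) and Tbx18 (7.46), which averaged 20.0 and 15.5 TPM in EedcKO. The order was not the same in each WT library. In WT 1, Osr1 (6.35 TPM) lay below Eya4 (8.03). In the library labelled WT 2, Tbx2 (13.3 TPM) and Sox7 (11.9) lay below Eya4 (13.8). At the low end Tbx1 and Tbx3 had medians of 3.48 and 1.78 TPM.

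**Figure D2:**
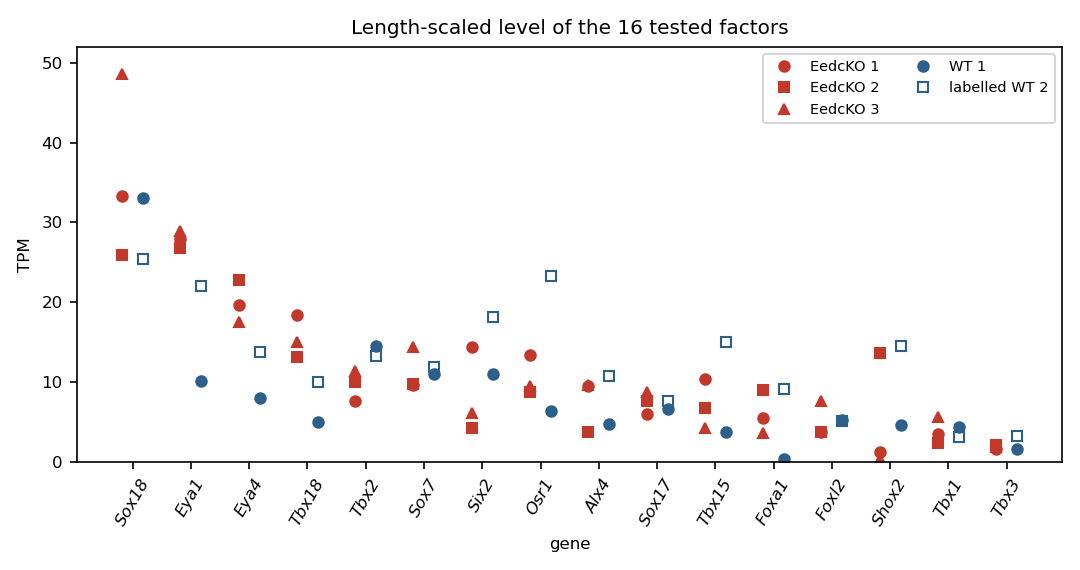
Deposited TPM of the 16 tested factors (x axis, ordered by the median over libraries) in each of the 3 EedcKO libraries (red) and 2 WT libraries (blue, open squares for the library labelled WT 2). Eya1, Eya4 and Tbx18 are the factors whose EedcKO points all lie above both WT points, while Tbx2 lies below them. By CPM, 16.4% of all tested genes lay above in this way and 17.4% below.

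Among the tested T-box factors, only Tbx18 had all EedcKO libraries above both WT libraries, as 16.4% of all tested genes did. Tbx2, a repressor expressed in heart and optic vesicle, had 27, 36 and 42 counts in EedcKO 1, 2 and 3, against 52 in WT 1 and 49 in the library labelled WT 2. Its EedcKO libraries all lay below both WT libraries, at 7.23 ± 1.50 CPM (SD, n = 3) against 10.5 ± 0.707 CPM in WT (SD, n = 2), and its log2 fold change was -0.53 (SE 0.27, edgeR adjusted p = 0.375). Tbx3, the paralog of Tbx2 in limb and mammary buds, had 10, 14 and 12 counts in EedcKO, against 10 in WT 1 and 22 in the library labelled WT 2 (log2 fold change -0.41, SE 0.45, edgeR adjusted p = 0.727). Tbx15, a factor of limb and skin mesenchyme, had 38, 25 and 16 counts in EedcKO, against 14 in WT 1 and 57 in the library labelled WT 2 (log2 fold change -0.42, SE 0.59, edgeR adjusted p = 0.793). All 3 EedcKO libraries of Tbx15 lay between the WT libraries. Tbx1, the factor of the pharyngeal arches, had 12, 8 and 20 counts in EedcKO, against 15 in WT 1 and 11 in the library labelled WT 2, with overlapping groups. Among the T-box factors too sparse to test, Tbx5, of forelimb and heart, had 6, 6 and 3 counts in EedcKO, against 0 in WT 1 and 5 in the library labelled WT 2. Tbx4, of the hindlimb, had 2, 2 and 2 counts in EedcKO, against 5 and 1 in WT 1 and the library labelled WT 2. Tbx20, of the heart, had 1, 3 and 1 counts in EedcKO, against 0 and 2. These counts allow no ordering of the groups at this depth.

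The SOXF factors Sox7, Sox17 and Sox18 act in endothelial cells, and Sox17 also in endoderm. Their counts overlapped between the groups in every case. Sox18 had 53, 42 and 80 counts in EedcKO 1, 2 and 3, against 53 in WT 1 and 42 in the library labelled WT 2 (log2 fold change 0.29, SE 0.31, edgeR adjusted p = 0.721). Sox17 had 28, 36 and 42 counts in EedcKO, against 31 in WT 1 and 37 in the library labelled WT 2. Sox7 had 31, 32 and 48 counts in EedcKO, against 36 in WT 1 and 40 in the library labelled WT 2. EedcKO 3 held the highest count of each. The 9 endothelial markers, led by Kdr, summed to 1361, 1223 and 1696 counts in EedcKO 1, 2 and 3, against 1535 in WT 1 and 1186 in the library labelled WT 2. Their sum too was highest in EedcKO 3, none of the 9 was at 0, and their part in the SOXF counts was not tested.

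Among the factors of endoderm and gut, Foxa1 was the only one with enough counts to test. Foxa1, a pioneer factor of liver, gut and lung, had 18, 30 and 12 counts in EedcKO 1, 2 and 3, against 1 in WT 1 and 31 in the library labelled WT 2. WT 1 was near silence (95% Poisson interval 0.0253 to 5.57 counts), while the library labelled WT 2 lay at the top of the EedcKO range (21.1 to 44.0 counts). Over all 5 libraries the log2 fold change was 0.33 (SE 0.91, edgeR adjusted p = 0.903). Without the library labelled WT 2 it was 4.14, with WT 1 as the lone WT sample. There the EedcKO counts, 60 in all, stood to the single count of WT 1 at a ratio of 19.6 per library size, with a 95% counting interval of 3.39 to 788. Against the library labelled WT 2 the ratio was 0.657 (0.419 to 1.05). These intervals cover counting error only.

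The GATA factors, which specify endoderm and heart, were sparse. Gata4 had 1, 10 and 2 counts in EedcKO 1, 2 and 3, against 0 in WT 1 and 1 in the library labelled WT 2. Gata6 had 3, 5 and 6 counts in EedcKO, against 1 in WT 1 and 3 in the library labelled WT 2. For each gene EedcKO 1 and the library labelled WT 2 had the same count, and the counts are too few to order the groups. Foxa2, of the node, floor plate and endoderm, had no count in EedcKO, against 1 and 3 counts in WT 1 and the library labelled WT 2. The caudal factor Cdx4 had 1 count, in EedcKO 2. The caudal factors Cdx1 and Cdx2 and the liver regulator Hnf4a had none. By the usual 1-sided bound, a count of 0 allows up to 3 counts, or 0.610 to 0.632 CPM depending on the library, so low expression of these genes was not detectable at this depth.

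Streak, heart, muscle and axial factors did not pass the filter on low counts with all 5 libraries. T (Brachyury), the factor of the primitive streak and notochord, had 3, 2 and 5 counts in EedcKO 1, 2 and 3, against 6 in WT 1 and 9 in the library labelled WT 2. Gsc, of the organizer and later of facial mesenchyme, had 2, 4 and 0 counts in EedcKO, against 3 and 7. Both genes had their highest count in the library labelled WT 2. For T all EedcKO libraries lay below both WT libraries, but the 95% counting intervals of EedcKO over either WT library included 1 (0.180 to 1.83 and 0.138 to 1.05).

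Cardiac factors were few in count. Hand2, of heart and branchial arches, had 1, 6 and 2 counts in EedcKO 1, 2 and 3, against 1 in WT 1 and 10 in the library labelled WT 2. Nkx2-5, a cardiac homeobox factor, had 0, 2 and 1 counts in EedcKO, against 0 and 2, and Hand1 had at most 3 in any library. Of the 6 heart muscle markers, Myh7, a myosin heavy chain, was lower in EedcKO, at 13, 12 and 9 counts, against 34 in WT 1 and 61 in the library labelled WT 2 (log2 fold change -2.05, edgeR adjusted p = 0.0316). Only 4 of the 6 had enough counts to test, and none of these passed without the library labelled WT 2. With all 5 libraries Myh7 alone passed, where 2.17% of all genes tested passed as lower. Myl2, a ventricular myosin light chain, lay the other way and did not pass, at 7, 10 and 15 counts in EedcKO, against 2 and 5. Myod1, which drives skeletal muscle fate, had 4, 0 and 3 counts in EedcKO, against 0 in WT 1 and 11 in the library labelled WT 2. Its relative Myf5 had at most 3 in any library. Skeletal muscle markers were high in that library as well. The 10 markers, led by Actc1 and Myh3 in the library labelled WT 2 and by Mylpf in the others, summed to 82, 50 and 58 counts in EedcKO 1, 2 and 3, against 65 in WT 1 and 406 in the library labelled WT 2. There all 10 had counts, while 1, 1, 4 and 3 of them were at 0 in EedcKO 1, 2, 3 and WT 1. The part of these cells in the factor counts was not tested.

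Pax1, a factor of the sclerotome and of the pharyngeal pouches, was found almost entirely in the library labelled WT 2. It had 4, 1 and 1 counts in EedcKO 1, 2 and 3, against 0 in WT 1 and 55 in the library labelled WT 2 (95% Poisson interval 41.4 to 71.6). EedcKO lay with WT 1 here. With all 5 libraries it was below the filter on low counts, and with no filter its log2 fold change was -3.69 (SE 1.76, edgeR adjusted p = 0.477). Without WT 1 it was -4.69, with the library labelled WT 2 as the lone WT sample. Pax1 entered that fit only through the library labelled WT 2, so its direction there was set by the filter and is no result. Its relative Pax9, of pharyngeal pouches and teeth, had 0, 1 and 1 counts in EedcKO, against 3 in WT 1 and 3 in the library labelled WT 2. Nkx3-2, which acts downstream in the sclerotome, had at most 2 counts in any library.

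Of the visceral and urogenital factors, 3 were tested and none passed. Six2, which maintains nephron progenitors, had 30, 9 and 13 counts in EedcKO 1, 2 and 3, against 23 in WT 1 and 39 in the library labelled WT 2 (log2 fold change -0.83, SE 0.52, edgeR adjusted p = 0.490). EedcKO 1 lay within the WT range and EedcKO 2 and 3 lay below it. Osr1, of the intermediate mesoderm, had 27, 18 and 20 counts in EedcKO, against 13 in WT 1 and 49 in the library labelled WT 2 (log2 fold change -0.50, SE 0.52, edgeR adjusted p = 0.708). Its paralog Osr2, of palate and joints, had 2, 4 and 0 counts in EedcKO, against 2 in WT 1 and 31 in the library labelled WT 2. Osr2 too was below the filter with all 5 libraries, and with no filter its log2 fold change was -2.96 (SE 1.21, edgeR adjusted p = 0.335). Without WT 1 it was -3.86 against the library labelled WT 2 alone, through which it passed the filter, so that direction is no result. Foxl2, of the ovary and eyelid mesenchyme, had 12, 12 and 25 counts in EedcKO, against 17 in WT 1 and 17 in the library labelled WT 2. Foxf1, of splanchnic mesoderm, had 0, 2 and 3 counts in EedcKO, against 1 and 0. Wt1, of podocytes and gonads, had 2, 1 and 0 counts in EedcKO, against 0 and 3, and Tcf21, of visceral mesenchyme, had 1 count, in EedcKO 2.

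Of the limb and face factors, Alx4 and Shox2 were tested and did not pass. Alx4, of the frontonasal and limb mesenchyme, had 66, 26 and 69 counts in EedcKO 1, 2 and 3, against 33 in WT 1 and 77 in the library labelled WT 2. Shox2, of proximal limb and sinoatrial node, was at 4, 45 and 1 counts in EedcKO, against 15 in WT 1 and 49 in the library labelled WT 2 (log2 fold change -0.93, SE 1.19, edgeR adjusted p = 0.775). EedcKO 2 and the library labelled WT 2 were high together, as they were for the 4 choroid plexus markers (Ttr, Kl, Folr1 and Clic6). These summed to 145, 512 and 4 counts in EedcKO 1, 2 and 3, against 231 in WT 1 and 1329 in the library labelled WT 2, and the part of that tissue in the Shox2 counts was not tested. Alx1, of facial mesenchyme, had 5, 6 and 3 counts in EedcKO, against 8 in WT 1 and 21 in the library labelled WT 2, with EedcKO below both. Barx1, of stomach and molar mesenchyme, had 2, 8 and 4 counts in EedcKO, against 0 in WT 1 and 6 in the library labelled WT 2. Barx2 had 2, 1 and 0 counts in EedcKO, against 1 and 10. Pitx1, of hindlimb and oral ectoderm, had 3, 0 and 0 counts in EedcKO, against 0 and 8.

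**Figure D3:**
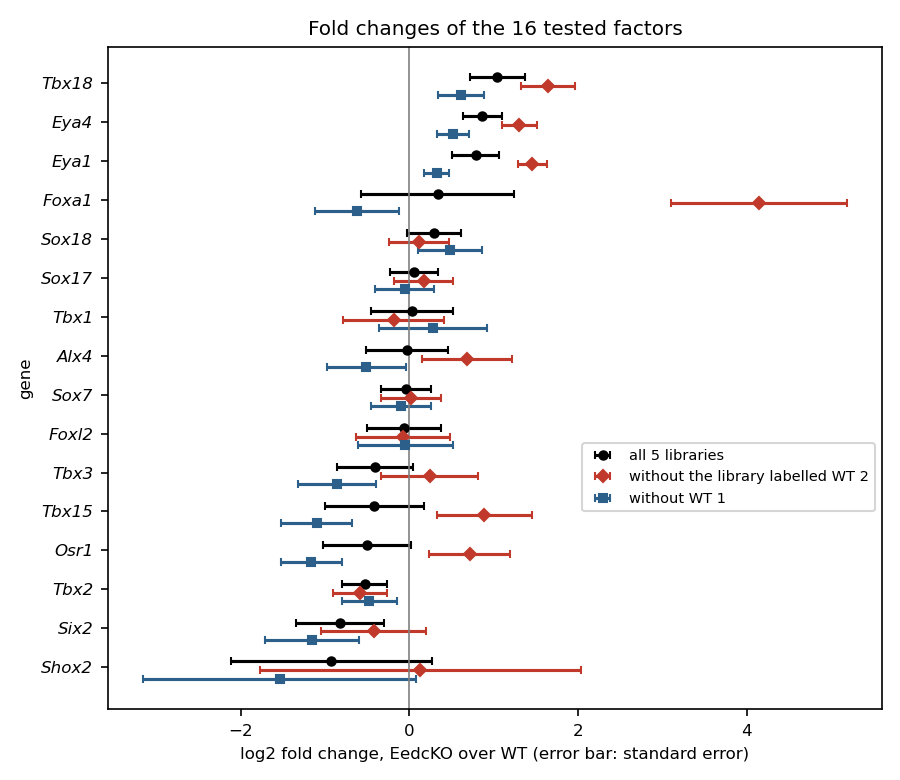
Log2 fold change of EedcKO over WT with its standard error for the 16 tested factors, from all 5 libraries (black circles), without the library labelled WT 2 (red diamonds) and without WT 1 (blue squares). Eya1, Eya4, Tbx18 and Sox18 stay above 0 in all 3 fits, while Foxa1, Osr1, Tbx15, Tbx3, Alx4, Shox2, Tbx1, Sox17 and Sox7 lie on opposite sides of 0 in the fits that leave out either WT library, none of them past the threshold.

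With the library labelled WT 2 left out, the log2 fold changes of tested factors that did not pass were -0.59 for Tbx2 (edgeR adjusted p = 0.361), -0.42 for Six2 (0.785), 0.71 for Osr1 (0.484), 0.89 for Tbx15 (0.451 by the same test) and 0.68 for Alx4 (0.568). Those of Sox18, Sox17, Sox7, Tbx3, Tbx1, Shox2 and Foxl2 lay between -0.19 and 0.24, with edgeR adjusted p between 0.858 and 0.987. Tbx2 and Six2 thus kept a negative value, while Osr1, Tbx15 and Alx4, negative with all 5 libraries, were positive. Foxa1, described above, did not pass either. Its log2 fold change, 4.14, was the largest of all in that fit and rests on 1 count in WT 1.

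The library labelled WT 2 had the highest CPM for 17 of the 35 factors with at least 5 counts (48.6%), against 24.0% of 16853 genes with at least 5 counts. WT 1 was highest for 3 (8.57%), against 24.99% of those genes. Among the 19 sparse factors the counts summed to 43, 64 and 37 in EedcKO 1, 2 and 3, against 31 in WT 1 and 188 in the library labelled WT 2. Of the 188, Pax1 gave 55 and Osr2 gave 31. In total 14 factors had no count in WT 1 and at least 1 elsewhere, and 12 of these had a count in the library labelled WT 2. Of these 14, 5 had a count in all 3 EedcKO libraries (Gata4, Tbx5, Tbx20, Pax1 and Barx1). They were picked by the value of WT 1, so their level there is no result.

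Markers of epithelium outside the brain and of HOX expression also set the WT libraries apart. The 10 epithelial markers, with Krt5 at 428 counts in the library labelled WT 2, summed to 112, 69 and 58 counts in EedcKO 1, 2 and 3, against 92 in WT 1 and 1201 in the library labelled WT 2. In that library none of the 10 was at 0, while 0, 2, 5 and 3 of them were at 0 in EedcKO 1, 2, 3 and WT 1. The 39 HOX genes summed to 85, 184 and 62 counts in EedcKO 1, 2 and 3, against 2 in WT 1 and 134 in the library labelled WT 2. Pax1, Osr2, Pitx1, Barx2 and Myod1 were high where the epithelial and muscle markers were high. Foxa1, Tbx5 and Barx1 were low where the HOX genes were low, in WT 1. These genes were picked after their values were seen, and the part of those tissues in their counts was not tested. Liver and gut markers (Afp, Alb, Apoa1, Apoa2 and Fabp1) summed to at most 10 counts in any library, heart muscle markers summed to 60, 48 and 93 counts in EedcKO, against 72 and 139, and cartilage markers, nearly all Col2a1 and Col11a1, to 1605, 1473 and 1616, against 1294 and 1215. The 7 erythroid markers summed to 1320, 1092 and 977 counts in EedcKO, against 993 and 1630.

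**Figure D4:**
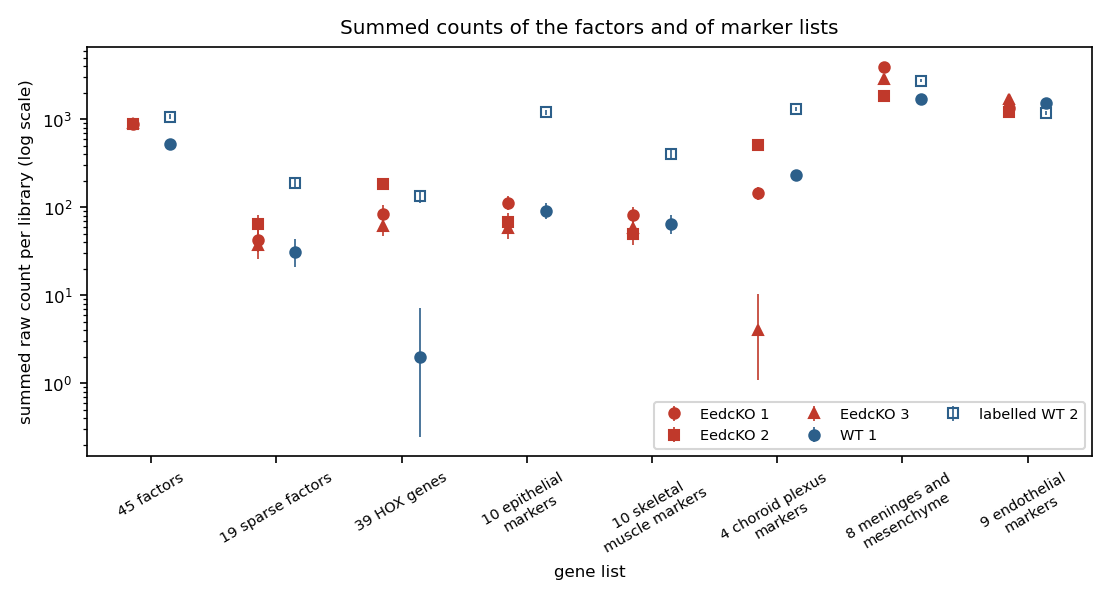
Summed raw counts per library (log scale) with 95% Poisson intervals for the 45 factors, the 19 sparse factors and 6 marker lists, for 3 EedcKO libraries (red) and 2 WT libraries (blue, open squares for the library labelled WT 2). The sparse factors, epithelial and skeletal muscle markers are highest in the library labelled WT 2, and the HOX genes have 2 counts in WT 1 against 62 to 184 in the others.

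Of 47 companion factors of the same lineages, such as PRRX, TWIST, MSX and FOXC family members, 26 were tested and none passed over all 5 libraries by edgeR, with 4 at an unadjusted p under 0.05 (17.2% of all genes were) and 1, Prrx1, called higher by DESeq2 (1.88% of all genes were). Those with the smallest p were Foxd1, of kidney stroma and meninges, and Prrx1, of limb and craniofacial mesenchyme. Foxd1 had 28, 26 and 27 counts in EedcKO 1, 2 and 3, against 55 in WT 1 and 53 in the library labelled WT 2 (log2 fold change -0.998, SE 0.24, edgeR adjusted p = 0.0751; without the library labelled WT 2 -1.04, edgeR adjusted p = 0.0766). Prrx1 had 441, 338 and 372 counts in EedcKO, against 172 in WT 1 and 291 in the library labelled WT 2 (log2 fold change 0.73, SE 0.21, edgeR adjusted p = 0.130).

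Without the library labelled WT 2, 4 of 28 tested companions passed as higher (2.07% of all genes did): Prrx2 (log2 fold change 2.12), Msx1 (1.85), Six4 (1.50) and Prrx1 (1.14), with edgeR adjusted p between 0.00896 and 0.0402. Without WT 1, 5 of 31 passed as lower (4.02% of all genes did): the myogenic factor Myog (-4.995), Twist2 (-3.33), the blood factor Tal1 (-1.64), Twist1 (-1.61) and Msx1 (-1.13), with edgeR adjusted p between 0.0126 and 0.0389. Myog, with 3, 0 and 0 counts in EedcKO, against 0 and 36, passed the filter only through the library labelled WT 2, so its direction was set by the filter. Msx1, a homeobox factor of limb, teeth and dorsal midline, passed in opposite directions. It had 111, 125 and 71 counts in EedcKO 1, 2 and 3, against 28 in WT 1 and 226 in the library labelled WT 2, so all 3 EedcKO libraries lay between the WT libraries. Each fit that leaves out a WT library keeps a single WT library, assumed to vary like EedcKO.

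Exons of 11 of the 45 factors overlap those of an antisense gene in the GENCODE M21 annotation, 5 of them tested (Sox17, Foxl2, Tbx3, Tbx18 and Shox2), and exons of Pitx1 and Alx1 overlap a gene on their own strand. No source used here states whether counting used strand, so reads of these pairs may not be told apart. For Shox2 the antisense partner is Rsrc1, a splicing factor with 322 to 371 counts in EedcKO and 337 in both WT libraries. These are counts over the whole gene, and the part of the shared exons in the Shox2 counts was not tested. For Foxl2 the partner is Foxl2os, with 18, 11 and 19 counts in EedcKO, against 9 in WT 1 and 15 in the library labelled WT 2, a level like that of Foxl2 itself.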

How the data were processed

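The authors deposited whole-number counts per gene, not normalized, and TPM, per the file headers and values. The submitters' processing notes name HISAT2 2.2.0 and the build mm10, with no counting tool, strand setting or annotation. For 12840 genes with at least 10 counts in every library, count over deposited TPM had the same proportions in all libraries within 1%, so TPM are the same counts over 1 length per gene. Rows without a symbol (28277 of 56196, with 2.01% to 2.16% of the counts) were left out. For 407 symbols on several rows, the row with at least 99% of the counts kept the symbol.

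The test was edgeR 4.0.16 in R 4.3.3 (filterByExpr by group, TMM, glmQLFit with robust estimation, glmQLFTest, Benjamini-Hochberg adjustment over 13989 genes, threshold 0.05). CPM are scaled by TMM. The fit was tested on simulated data. Poisson and binomial intervals are at 95%. Libraries were grouped by title, EedcKO over WT. Alternatives were RLE size factors, DESeq2 1.42.0, no count filter, the replicate number as a block, embryo sex as a covariate, and each library left out. The members, companions, marker lists and tests were chosen with earlier results of these data known. Full statistics were given for up to 10 tested factors with the smallest p, counts for every tested factor and for every other with at least 5 counts. Companions were named if past the threshold, otherwise the 2 with the smallest p.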

Additional observations from a re-analysis of the deposited data

How the results depend on the processing

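Without each library in turn, the count of factors past the threshold ranged from 0 to 3 higher and from 0 to 2 lower, and that of companion factors from 0 to 4 higher and from 0 to 5 lower. All genes past the threshold ranged from 0, without EedcKO 3 (1887 at an unadjusted edgeR p under 0.05), to 1012, without WT 1. The median log2 fold change of the tested factors ranged from -0.62, without WT 1, to 0.20. The fit without WT 1 tested 21 factors. Of these, Pax1, Osr2, Alx1, Hand2 and Myod1 passed the filter only through the library labelled WT 2, where they were highest. Their negative values there were set by the filter and lower that median, so it is not comparable with the others. The log2 ratio of summed factor counts, 0.17 with all libraries, ranged from -0.24 without WT 1 to 0.75 without the library labelled WT 2. DESeq2 called 1 factor, 1 companion and 677 genes in all, against 448 with edgeR. Without a count filter the median log2 fold change over the 41 factors with a count was -0.41. The other median and ratio values moved by less than the spread between libraries. With the replicate block edgeR called 0 genes in all and 0 factors (2169 and 3 at an unadjusted p under 0.05), and with embryo sex as a covariate 0 and 0 (1611 and 2). Same-numbered libraries had deviations correlated at r = -0.0412 (number 1) and 0.130 (number 2) over 13989 genes, and the labels state no pairing.

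Of the 16 tested factors, 6 kept their sign under all 10 alternatives (Eya1, Eya4, Tbx18, Sox18, Six2 and Tbx2). Of these, Six2 moved to -0.030 with the sex covariate and ranged from -1.50 to -0.42 with a library left out, and Sox18 moved to 0.0051 with the block and 0.0039 without EedcKO 3. The cause of the other changes of sign, none of them in a call, was not tested. Under the block, Sox17 was at -0.085, Tbx1 at -0.38 and Tbx15 at 0.034 on the log2 scale. With the sex covariate, Sox17 was at -0.27, Tbx1 at -0.10, Tbx15 at 0.12 and Alx4 at 0.28. With each library left out, log2 fold changes ranged from -0.51 to 0.68 (Alx4), -0.62 to 4.14 (Foxa1), -0.49 to 0.12 (Foxl2), -1.16 to 0.71 (Osr1), -3.60 to 0.13 (Shox2), -0.080 to 0.18 (Sox17), -0.26 to 0.058 (Sox7), -0.37 to 0.29 (Tbx1), -1.10 to 0.89 (Tbx15) and -0.86 to 0.24 (Tbx3). Depth limits most of the sparse factors: 29 of the 45 were below the filter on low counts with all 5 libraries. Pax1 and Osr2 were among them, with most of their counts in 1 library. Fits that leave 1 WT library assume that it varies like EedcKO, and with no male WT library the sex covariate leaves EedcKO 1 as the only EedcKO library compared within a sex.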
